A study of Mus musculus with 4 samples.

Results

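Insulin and the insulin-like growth factors (IGFs) signal through a pair of related receptor tyrosine kinases, the insulin receptor (Insr) and the type 1 IGF receptor (Igf1r). The receptors phosphorylate the docking proteins Irs1 and Irs2, which recruit PI3-kinase and so reach Akt, mTOR and the FOXO factors. Secreted IGF binding proteins (Igfbp) hold IGFs outside the cell, and proteases that cleave them release the ligand. In the mammary gland the pathway is known for its part in ductal growth and in the survival of epithelial cells, and Igfbp5 for its rise during involution. The 10 genes described here are the binding proteins Igfbp2 to Igfbp7, both receptors and both adaptors. They are given by name as the binding proteins, receptors and adaptors of the pathway, and no threshold on their values was used. All 10 were listed among the 22440 rows of the mammosphere and bulk table, and 7 among the 11708 rows of the Cbx8 knockdown and control table, where Igfbp2, Igfbp3 and Igfbp5 have no row. Each listed member had a single row that held no other symbol.

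The study sequenced polyadenylated RNA of MMTV-Myc mouse mammary tumour cells, a line whose Myc transgene is driven by the mouse mammary tumour virus promoter. There were 4 groups of 1 library each. Mammosphere cells (day 20) were kept on low-attachment plates with 20 ng/ml EGF, 20 ng/ml bFGF and Gem21 supplement. Their counterpart was bulk cells (day 0), whose medium held 2% FBS and 10 µg/ml insulin. The labels do not say whether Gem21 supplied insulin, so the groups cannot be read as insulin present against insulin absent. Both groups are labelled wild type. The Cbx8 knockdown cells carried the lentiviral pLKO.1 hairpin sh68 and were selected with 2 µg/ml puromycin. The control cells were labelled wild type (shLuc) and were also selected with 2 µg/ml puromycin. They carried a hairpin that one label calls scrambled and another shLuc. The medium and the way of growth of the hairpin cultures are not stated, and sh68 is a single hairpin.

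The values are FPKM, fragment numbers made comparable for transcript length and for library size, as the authors deposited them. Because each group is 1 library, no spread between replicates exists, no p-value was computed, and every difference below is between 2 libraries. The p-values and q-values quoted as the authors' rest on the same single libraries, so they do not measure spread between cultures. Changes are log2((FPKM + 1)/(FPKM + 1)), which understates the change of low genes. A row was kept with 1 FPKM or more in either library, and was counted as higher or lower at 2-fold on that scale. Depth is unknown because the files give no counts. Cbx8 was at 1.23 FPKM in the knockdown library, against 4.74 FPKM in the control library. The median row kept had a log2 change of -0.24 in the mammosphere comparison and -0.006 in the knockdown comparison. In mammospheres 411 rows were higher and 2002 lower, so that higher rows were 17.0% of those counted, or 34.3% after centring on the median and 34.4% with equal upper quartiles. The 2 tables were made separately. Gapdh, which cells of all types use, shows how far row levels can part between them, at 32.5 FPKM in mammospheres and 62.8 in bulk cells but 0.511 FPKM in the knockdown and 0.977 in the control library.

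Keratins and junction genes were read as markers of epithelial identity. Krt8 was at 5.14 FPKM in mammospheres, against 334 FPKM in bulk cells, and Krt18 at 58.2 FPKM in mammospheres and 570.4 FPKM in bulk cells. The epithelial adhesion genes Epcam and Cdh1 were near 0 in mammospheres (0.0908 and 0.0135 FPKM), and low in bulk cells (1.06 and 1.04 FPKM). Epcam was at 0.0427 FPKM in the knockdown library, against 0.338 FPKM in the control library, and Cdh1 at 0.206 FPKM in the knockdown library, against 0.283 FPKM in the control library. Krt18 was at 256 FPKM in the knockdown library and 261 FPKM in the control library. Krt19 was at 9.65 FPKM in mammospheres, against 9.08 FPKM in bulk cells, and at 72.3 FPKM in the knockdown library, against 90.1 FPKM in the control library. Of the claudin genes of tight junctions, Cldn4 was at 0.213 FPKM in mammospheres, against 15.1 FPKM in bulk cells. Cldn3 was at 0.276 FPKM in mammospheres, against 1.77 FPKM in bulk cells, and at 24.9 FPKM in the knockdown library, against 22.8 FPKM in the control library. Keratin transcripts were thus present in all 4 libraries, Epcam and Cdh1 were at 1.06 FPKM or less in each, and the claudins varied.

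The windows around the gene starts of both adaptors and of the binding proteins that differed most between mammospheres and bulk cells are shown first. They are RefSeq sequences of the GRCm38.p6 build, from 250 bases before to 50 bases after the start, on the strand of the gene. The deposited tables use mm9, so these coordinates are not interchangeable with those given further on. Capitals mark the E-box CACGTG, the element that Myc and related factors are known to bind, and the insulin response element core CAAAACA or its reverse complement TGTTTTG, a FOXO-related element. The E-box was chosen after the sequences had been read.
Irs2, chr8:11008880-11009179, minus strand: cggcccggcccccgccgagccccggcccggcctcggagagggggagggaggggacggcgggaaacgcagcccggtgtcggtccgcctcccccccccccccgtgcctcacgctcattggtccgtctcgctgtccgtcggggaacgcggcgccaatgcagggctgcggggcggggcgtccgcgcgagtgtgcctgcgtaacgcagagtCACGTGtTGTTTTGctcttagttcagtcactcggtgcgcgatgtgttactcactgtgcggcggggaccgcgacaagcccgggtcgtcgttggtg
Irs1, chr1:82291390-82291689, minus strand: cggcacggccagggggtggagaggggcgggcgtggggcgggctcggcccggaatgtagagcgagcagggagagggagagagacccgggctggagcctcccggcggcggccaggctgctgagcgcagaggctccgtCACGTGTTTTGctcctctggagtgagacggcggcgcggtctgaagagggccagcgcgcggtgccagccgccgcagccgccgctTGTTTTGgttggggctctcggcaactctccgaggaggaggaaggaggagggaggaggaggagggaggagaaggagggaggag
Igfbp7, chr5:77407996-77408295, minus strand: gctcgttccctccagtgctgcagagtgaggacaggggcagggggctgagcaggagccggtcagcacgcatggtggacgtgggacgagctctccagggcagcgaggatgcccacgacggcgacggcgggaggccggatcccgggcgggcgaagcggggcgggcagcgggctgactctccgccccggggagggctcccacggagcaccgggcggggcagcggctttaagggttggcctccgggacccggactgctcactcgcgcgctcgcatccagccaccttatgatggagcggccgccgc
Igfbp6, chr15:102143936-102144235, plus strand: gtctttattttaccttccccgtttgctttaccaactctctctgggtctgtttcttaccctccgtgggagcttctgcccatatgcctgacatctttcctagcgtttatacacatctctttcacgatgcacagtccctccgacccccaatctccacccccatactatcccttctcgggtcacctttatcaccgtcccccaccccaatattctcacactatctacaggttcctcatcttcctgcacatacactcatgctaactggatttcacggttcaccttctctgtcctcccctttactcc

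Of the 10 genes, 9 had a window in the table used, with 10 windows in all because Igfbp2 has a pair. The Irs2 and Irs1 windows share the layout of an E-box followed by an insulin response element core on the same side. In Irs2 the E-box begins 44 bases before the start and the core 37 bases before it. In Irs1 the E-box begins 115 bases before the start and overlaps a core that begins 111 bases before it, and another core lies 32 bases before the start. The longest runs common to both windows are of 10 bases. They include gtcacgtgtt, which holds the E-box, and a run of equal length that starts with the core TGTTTTG. On either strand, CAAAACA occurs in 6.28% of the 32851 windows of all genes and in the windows of Irs1 and Irs2 among the members. The palindrome CACGTG occurs in 7.15% of all windows and in 3 member windows, those of Irs1, Irs2 and the upstream one of Igfbp2. The FOXO motif GTAAACA (reverse complement TGTTTAC) is held by 3.65% of all windows and by none of the members' windows. The windows of Irs2 (72.0% G and C, 41 CpG) and Igfbp7 (73.3%, 33 CpG) are rich in CpG, whereas that of Igfbp6 (49.7%, 8 CpG) is close to the median window (52.7%, 7 CpG). These matches describe letters only, and nothing on binding was measured.

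Igfbp7 had the largest difference of the members between mammospheres and bulk cells, followed by Igfbp6 and the adaptor Irs2. Igfbp7, Igfbp6, Igfbp5 and Igfbp3 were lower in mammospheres, whereas Igfbp4, the most abundant one in each of the 4 libraries, stayed under the 2-fold limit. Irs2 was lower as well, and the receptors were within 2-fold. Of the 8 members kept, 5 were counted as lower and none as higher. Among all 11603 rows kept, 17.3% were lower and 3.54% higher. Igfbp7, Igfbp5 and Igfbp3 were kept only through their level in bulk cells, so their place among the lower genes follows partly from the filter. Igfbp2 and Irs1 were under 1 FPKM in both libraries and were not kept. The median log2 change was -1.46 over the 8 members kept and -0.24 over all rows kept, and the first value depends on the added 1 FPKM because it falls on genes listed at 0. The members' median was -3.18 with 0.1 FPKM added and -0.61 with 5 FPKM added.

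**Figure D1:**
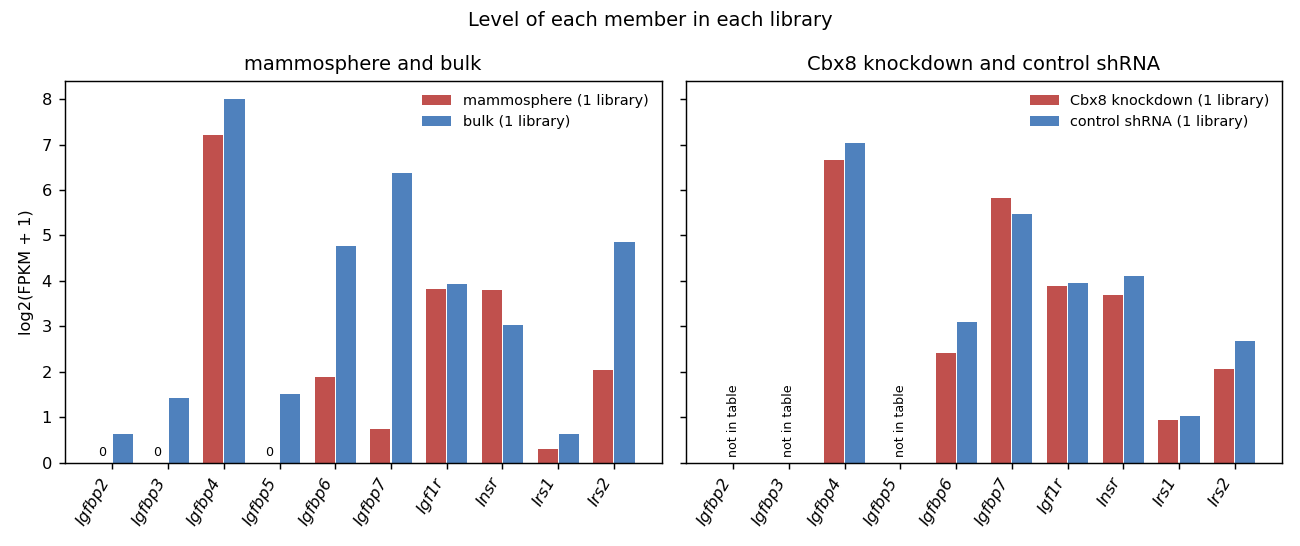
Level of each member as log2(FPKM + 1), 1 bar per library, with mammosphere and bulk cells on the left and Cbx8 knockdown and control shRNA cells on the right. A 0 marks a gene listed at 0 in mammospheres and "not in table" a gene with no row. Igfbp7, Igfbp6 and Irs2 stand apart in the left panel (0.669, 2.70 and 3.11 FPKM in mammospheres, 81.4, 26.3 and 27.9 FPKM in bulk cells), while the paired bars of the right panel are close.

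Igfbp7 encodes a secreted protein that binds IGFs weakly and is also described as a ligand or modulator of Igf1r (mm9 chromosome 5, 77739508 to 77837070). It was at 0.669 FPKM in mammospheres, against 81.4 FPKM in bulk cells, a log2 change of -5.62 and a plain ratio of 122-fold lower. Only 0.233% of the rows kept had a log2 change as low or lower. In the authors' deposited table this row had q = 4.28e-14. The locus overlaps that of Polr2b, a subunit of RNA polymerase II, which was at 34.9 FPKM in mammospheres and 28.0 FPKM in bulk cells. Strand is not stated for the counting, and the overlapping gene did not share the difference.

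Igfbp6 encodes the binding protein that prefers IGF2 to IGF1 (chromosome 15, 101974616 to 101979943). It was at 2.70 FPKM in mammospheres, against 26.3 FPKM in bulk cells, 9.73-fold lower as a plain ratio (log2 change -2.88). Its q in the authors' deposited table was 0.000126. Igfbp5 was listed at 0 in mammospheres and was at 1.83 FPKM in bulk cells. Igfbp3, the main carrier of IGFs in the circulation, was listed at 0 in mammospheres and at 1.69 FPKM in bulk cells. Igfbp2 was listed at 0 in mammospheres and at 0.539 FPKM in bulk cells. No fold is given for these 3 genes, and the authors did not test their rows. Igfbp2 and Igfbp5 are neighbours on chromosome 1, with 5593 bases between their loci in mm9.

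Igfbp4 encodes a small binding protein that mostly inhibits IGF action (chromosome 11, 98902573 to 98913957). It was at 147 FPKM in mammospheres, against 254 FPKM in bulk cells, 1.73-fold lower as a plain ratio (log2 change -0.78, or -0.55 after centring on the median row). In the authors' deposited table its q was 0.612. Its level placed it above 97.3% of rows kept in mammospheres and above 97.8% in bulk cells. Because the other binding proteins were so much lower, Igfbp4 made up 97.8% of the summed Igfbp FPKM in mammospheres, against 69.5% in bulk cells. Igfbp7 made up 0.444% in mammospheres, against 22.2% in bulk cells, and Igfbp6 1.79% in mammospheres, against 7.18% in bulk cells. The Igfbp sum without Igfbp4 was 3.37 FPKM in mammospheres, against 112 FPKM in bulk cells.

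**Figure D2:**
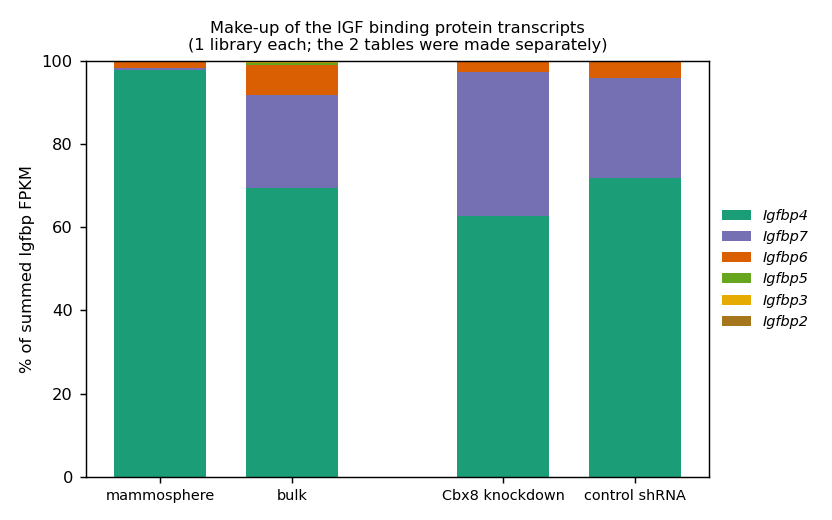
Share of each binding protein in the summed Igfbp FPKM of a library (y axis, %), 1 bar per library. Igfbp4 takes 97.8% in mammospheres, against 69.5% in bulk cells, and 62.7% in the Cbx8 knockdown library, against 71.9% in the control library; Igfbp2, Igfbp3 and Igfbp5 have no row in the knockdown table.

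Both receptors were within 2-fold between mammospheres and bulk cells. Insr was at 13.0 FPKM in mammospheres, against 7.20 FPKM in bulk cells (log2 change 0.77). Only 6.35% of rows kept had a larger log2 change, and the value was 1.01 after centring on the median and 1.07 with equal upper quartiles, so that under those scalings it was counted as higher. Igf1r was at 13.1 FPKM in mammospheres, against 14.3 FPKM in bulk cells (log2 change -0.12). The ratio of Insr to Igf1r was 0.989 in mammospheres, against 0.502 in bulk cells. The authors tested neither receptor row in this table.

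Of the adaptors, Irs2 is the one whose loss is known to impair spread of mammary tumours in mice (chromosome 8, 10986963 to 11008430). It was at 3.11 FPKM in mammospheres, against 27.9 FPKM in bulk cells, 8.99-fold lower as a plain ratio (log2 change -2.82). In the authors' deposited table its q was 7.48e-07. Irs1 was at 0.239 FPKM in mammospheres, against 0.541 FPKM in bulk cells, too low in both libraries to be kept. Irs2 thus exceeded Irs1 13.0-fold in mammospheres, against 51.6-fold in bulk cells, and the sum of both was 3.35 FPKM in mammospheres, against 28.5 FPKM in bulk cells. The authors tested 4 of the 10 member rows in this table, and 3 of them (Igfbp7, Igfbp6 and Irs2) passed at q below 0.05 in the authors' deposited table, where 11.9% of 4045 tested rows did.

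Most cell type markers that were kept, epithelial ones included, were lower in mammospheres too, beside 17.3% lower and 3.54% higher over all rows kept. Many of them were kept only through their level in bulk cells. They were 10 of the 11 fibroblast, 13 of the 15 leukocyte, all 3 endothelial, 3 of the 4 basal and 4 of the 8 luminal genes. The counts therefore follow largely from the filter, and the sums are given beside them. Of 12 fibroblast genes, 10 of the 11 kept were counted as lower in mammospheres, with a summed level of 18.9 FPKM, against 458 FPKM in bulk cells. Lum, Postn and Thy1 were listed at 0 in mammospheres. Of 15 leukocyte genes, 14 were lower and 1, Cd68, was higher, with sums of 110 FPKM in mammospheres and 352 FPKM in bulk cells. Tyrobp, Fcer1g, Cd3e, Cd3g and Ctss were listed at 0 in mammospheres. Of 8 endothelial genes, all 3 kept were lower, with sums of 0.474 FPKM in mammospheres and 8.98 FPKM in bulk cells, and Tek and Emcn were listed at 0 in mammospheres. Of 9 basal and myoepithelial genes, all 4 kept were lower, with 6.78 FPKM in mammospheres, against 53.7 FPKM in bulk cells, and Trp63 and Cnn1 were listed at 0 in mammospheres. Of 10 luminal genes, 6 of the 8 kept were lower, with 75.8 FPKM in mammospheres, against 945 FPKM in bulk cells, and none was listed at 0. Of 7 adipocyte genes 2 were kept and neither was counted, Fabp4 at 4.66 FPKM in mammospheres, against 7.84 FPKM in bulk cells, and Pparg at 1.95 FPKM in mammospheres, against 2.97 FPKM in bulk cells. Adipoq, Plin1 and Lep were at 0 in both libraries. The part of these cell types in the lower Igfbp and Irs2 levels was not tested, and fewer cells of a type cannot be told apart from less RNA per cell.

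The same members and marker lists were read in the hairpin cultures. In the control library Igfbp7 was at 43.5 FPKM, Igfbp4 at 131 FPKM, Igfbp6 at 7.55 FPKM and Irs2 at 5.43 FPKM. There the fibroblast genes Col1a1 and Col3a1 were at 0.880 and 2.33 FPKM, and 7 of the 12 fibroblast genes and 12 of the 15 leukocyte genes, Lyz2 and Tyrobp among them, had no row. All 11708 rows of that table were tested by the authors and none was at 0 in either library. A missing row therefore gives no level and cannot be read as absence of the transcript. The fibroblast sum, 55.8 FPKM in the control library, was mostly Col5a1 at 49.3 FPKM. Of the luminal genes 8 of 10 had a row, with Krt18 at 261 FPKM in the control library. Levels are not compared between the tables.

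In the Cbx8 knockdown library the members differed little from the control. None of the 7 was counted as higher or lower, where 0.299% of the 10685 rows kept were higher and 0.449% lower. The values of 6 of the 7 were below 0, against 51.2% of all rows kept. The largest differences were the lower Igfbp6 and Irs2. The median log2 change was -0.37 over the 7 members and -0.006 over all rows kept. All 7 rows were tested by the authors, with q = 0.999 for every one in the authors' deposited table. Of the 11708 rows tested there, 0.205% passed at q below 0.05.

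Igfbp6 was at 4.36 FPKM in the knockdown library, against 7.55 FPKM in the control library (log2 change -0.67, 1.73-fold lower as a plain ratio). Irs2 was at 3.17 FPKM in the knockdown library, against 5.43 FPKM in the control library (log2 change -0.63, 1.72-fold lower). These low values put both in the lowest 2% of log2 changes, with 1.52% of rows kept as low as Igfbp6 and 1.83% as low as Irs2. For Irs2 the authors' deposited table gives p = 0.0493 before adjustment, where 3.66% of all rows had p under 0.05, and for Igfbp6 p = 0.105. Both differences were below the limit of 2-fold and have no replicate behind them. Among the kept cell type markers only Krt14, a basal keratin, passed 2-fold between these libraries, at 10.5 FPKM in the knockdown and 1.09 FPKM in the control library. In the authors' deposited table Krt14 had q = 0.0325. Of the 3 fibroblast markers kept, 2 were below 0 like Igfbp6 and Irs2. One of these, Col3a1, was kept only through the control library, so its place below 0 follows partly from the filter. Col3a1 was at 0.675 FPKM in the knockdown library, against 2.33 FPKM in the control library (log2 change -0.99), with p = 0.00085 and q = 0.231 in the authors' deposited table. Mmp2, a matrix metalloproteinase gene, was at 1.32 FPKM in the knockdown library, against 2.81 FPKM in the control library (log2 change -0.72). Col5a1 went the other way, at 61.1 FPKM in the knockdown library, against 49.3 FPKM in the control library, and so the fibroblast sum was 64.1 FPKM in the knockdown library, against 55.8 FPKM in the control library. Of the leukocyte markers 2 were kept, with log2 changes of -0.63 for Cd68 and 0.58 for Cd14. Both of the 2 adipocyte markers kept were below 0 (median -0.28), but 1 of them was kept only through the control library. Fabp4 had p = 0.00155 and q = 0.297 in the authors' deposited table. Of the 6 luminal markers kept, 1 of them only through the control library, 4 were below 0 and 2 above. The part of these markers in the lower Igfbp6 and Irs2 was not tested.

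Insr was at 11.8 FPKM in the knockdown library, against 16.2 FPKM in the control library (log2 change -0.42), the opposite sign to its difference in mammospheres, although no test of the 2 differences against each other was possible. Igf1r was at 13.9 FPKM in the knockdown library, against 14.6 FPKM in the control library (log2 change -0.07). The ratio of Insr to Igf1r was therefore 0.854 in the knockdown library, against 1.11 in the control library. Igfbp4 was at 101 FPKM in the knockdown library, against 131 FPKM in the control library (log2 change -0.37). Igfbp7 was the one member with a positive value, at 55.5 FPKM in the knockdown library, against 43.5 FPKM in the control library (log2 change 0.34). Igfbp7 made up 34.5% of the summed Igfbp FPKM in the knockdown library, against 23.9% in the control library. Irs1 was at 0.914 FPKM in the knockdown library, against 1.05 FPKM in the control library, and was kept only through the control library. Irs2 exceeded Irs1 3.47-fold in the knockdown library, against 5.19-fold in the control library.

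**Figure D3:**
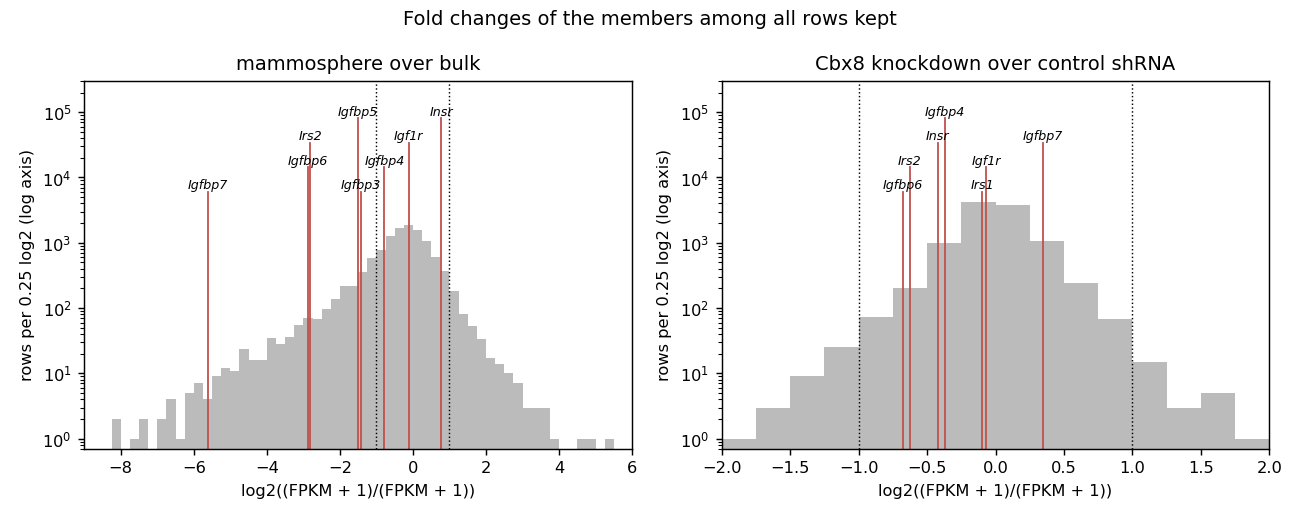
Log2 change of each member kept (red lines, heights set for legibility only) over the distribution of all rows kept (grey, number of rows per 0.25 log2 on a log axis), for mammosphere over bulk (left) and Cbx8 knockdown over control shRNA (right, rows beyond a log2 of 2 either way not drawn). Dotted lines mark 2-fold; 5 of 8 members lie below the lower line on the left (Igfbp7 at -5.62) and all 7 lie between the lines on the right (Igfbp6 lowest at -0.67).

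The order of levels was the same at the top in all 4 libraries, with Igfbp4 first. In mammospheres Igf1r (13.1 FPKM) and Insr (13.0 FPKM) followed it, then Irs2 (3.11 FPKM) and Igfbp6 (2.70 FPKM), and Igfbp7 came only after them. In bulk cells Igfbp7 was second, then Irs2 (27.9 FPKM) and Igfbp6 (26.3 FPKM), both above Igf1r (14.3 FPKM) and Insr (7.20 FPKM). In the knockdown library Igfbp7 was second, followed by Igf1r and Insr, and in the control library Igfbp7 was second, followed by Insr (16.2 FPKM) and Igf1r (14.6 FPKM). Whether neighbours in these orders differ beyond their spread cannot be said from 1 library each.

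Genes with the most similar levels were sought among 9438 genes kept in both tables, by Euclidean distance over the 4 log2(FPKM + 1) values. For Igfbp7 the nearest was the fibulin family matrix gene Efemp1 (distance 1.08), at 0.646 FPKM in mammospheres and 42.6 in bulk cells, and at 77.9 FPKM in the knockdown and 54.4 in the control library. Next came Amotl2, an angiomotin family gene (1.09), and Fbln2, another fibulin (1.55). For Igfbp6 the nearest were the lysosomal protease gene Ctsc (0.339), the cytokine gene Il11 (0.488) and Irs2 itself (0.575). Il11 was at 2.67 FPKM in mammospheres and 30.5 in bulk cells, and at 5.46 FPKM in the knockdown and 9.90 in the control library. For Insr the nearest were Atxn3 (0.205), Ubxn7 (0.287) and Itpk1 (0.291), with Atxn3 at 11.2 FPKM in mammospheres and 7.16 in bulk cells, and at 12.3 FPKM in the knockdown and 15.6 in the control library.

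The rest of the pathway was followed in 108 genes of 6 lists. In mammospheres 3 of the 87 genes kept were higher by 2-fold or more and 17 lower, against 3.54% and 17.3% of all rows kept, so the share of lower genes was near that of the table as a whole. Their median log2 change was -0.33, against -0.24 for all rows kept. In the knockdown comparison none of 81 genes kept was counted in either direction, and the median was -0.04. There 0.299% of all rows kept were higher and 0.449% lower.

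**Figure D4:**
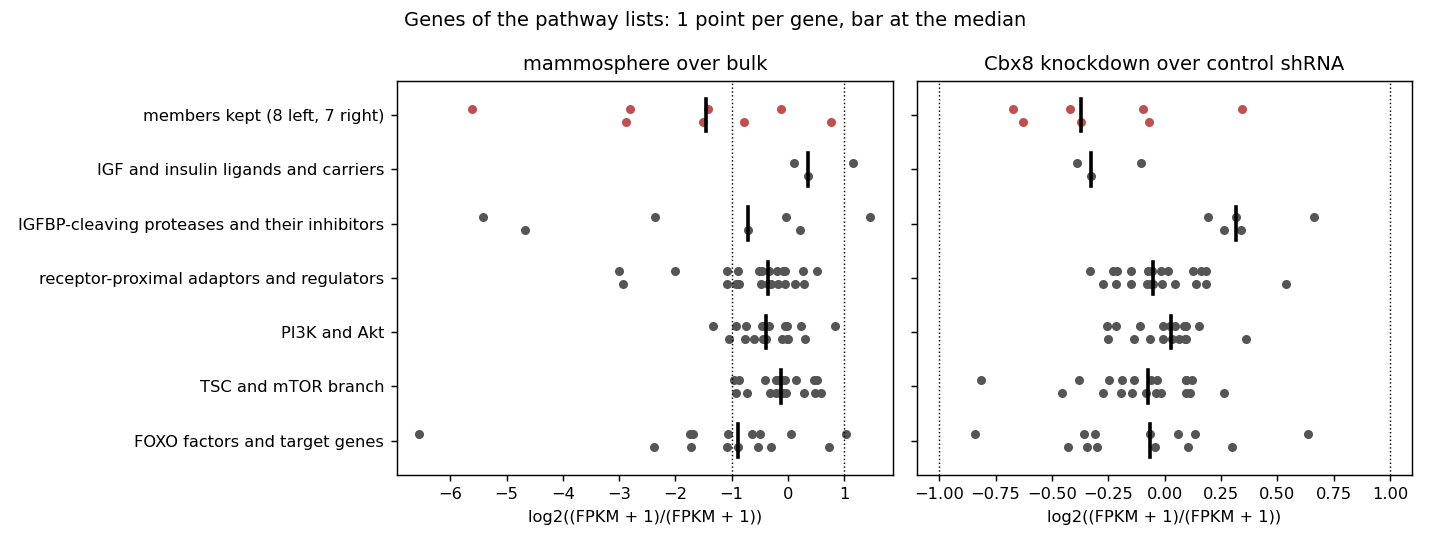
Log2 change of each kept gene of the members and the 6 pathway lists (x axis, 1 point per gene, black bar at the list median), for mammosphere over bulk (left) and Cbx8 knockdown over control shRNA (right); dotted lines mark 2-fold and the x axes differ in range. On the left the members' median is -1.46 and that of the mTOR branch -0.13; on the right no point lies beyond 2-fold.

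The ligand genes were almost silent in mammospheres and bulk cells. Igf1 was listed at 0 in mammospheres and was at 0.816 FPKM in bulk cells, Igf2 was at 0.011 FPKM in mammospheres and 0.116 FPKM in bulk cells, and Ins1 and Ins2 were listed at 0 in both. None of the 4 had a row in the knockdown table, which thus gives no level for them. Igf2r, the scavenging receptor for IGF2 that also sorts lysosomal enzymes, was higher in mammospheres, at 108 FPKM, against 47.9 FPKM in bulk cells (log2 change 1.16, q = 0.364 in the authors' deposited table). It was at 43.7 FPKM in the knockdown library, against 57.5 FPKM in the control library. Igf2bp2, which encodes an RNA-binding protein of the Igf2 transcript, was at 35.7 FPKM in mammospheres, against 33.3 FPKM in bulk cells, and at 60.7 FPKM in the knockdown library, against 76.4 FPKM in the control library. The 3 genes of this list that were kept were all below 0 in the knockdown comparison, with a median of -0.33. None of the 3 passed 2-fold, and 51.2% of all rows kept were below 0.

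Among 11 genes of proteases described to cleave IGF binding proteins and of their inhibitors, 3 of 7 kept were lower and 1 higher in mammospheres, beside 17.3% lower and 3.54% higher over all rows kept. Htra1, a secreted serine protease, was at 4.34 FPKM in mammospheres, against 227 FPKM in bulk cells (log2 change -5.41). Adamts1, a secreted metalloproteinase, was at 5.17 FPKM in mammospheres, against 157 FPKM in bulk cells (log2 change -4.68). Plat, tissue plasminogen activator, was at 63.1 FPKM in mammospheres, against 330.3 FPKM in bulk cells (log2 change -2.37). All 3 passed at q below 0.05 in the authors' deposited table. Stc1, encoding a stanniocalcin, whose family inhibits the protease PAPP-A, was at 11.3 FPKM in mammospheres, against 3.45 FPKM in bulk cells. Plau was at 166 FPKM in mammospheres, against 271 FPKM in bulk cells, and the lysosomal protease Ctsd at 379 FPKM in mammospheres and 390.4 FPKM in bulk cells. Pappa, the gene for the protease that cleaves Igfbp4, was listed at 0 in mammospheres and at 0.0228 FPKM in bulk cells. In the knockdown comparison the 5 kept genes were all above 0 (median 0.32), where 51.2% of all rows kept were below 0. None of the 5 passed 2-fold. Htra1 was at 314 FPKM in the knockdown library, against 198 FPKM in the control library (log2 change 0.66). Ctsd was at 567 FPKM in the knockdown library, against 496 FPKM in the control library.

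Of 28 receptor-proximal adaptors and regulators, 5 of 23 kept were lower in mammospheres and none higher (median -0.35), a share of lower genes near the 17.3% of all rows kept. Cav1, caveolin, which scaffolds insulin receptors in caveolae, was at 35.9 FPKM in mammospheres, against 294 FPKM in bulk cells. Socs3, a cytokine-induced inhibitor that also binds insulin receptors and Irs proteins, was at 5.30 FPKM in mammospheres, against 47.4 FPKM in bulk cells. Its relative Socs1 was at 4.00 FPKM in mammospheres, against 19.2 FPKM in bulk cells. The phosphatase gene Ptpn2 was at 13.6 FPKM in mammospheres, against 29.8 FPKM in bulk cells. The adaptor gene Grb2 was at 17.2 FPKM in mammospheres, against 37.3 FPKM in bulk cells. Nedd4, a ubiquitin ligase, was at 361 FPKM in mammospheres and 386 FPKM in bulk cells, and Rack1, listed under its older symbol Gnb2l1, at 1677 FPKM in mammospheres and 2307 FPKM in bulk cells. In the knockdown comparison the 22 genes kept had a median of -0.05, with Nedd4 at 363 FPKM in the knockdown library, against 378 FPKM in the control library.

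Of 19 genes of PI3-kinase and Akt, 2 were lower in mammospheres and none higher (median -0.40), beside 17.3% lower over all rows kept, and both were kept only through bulk cells. These were the inositol phosphatase genes Inpp4b, at 0.504 FPKM in mammospheres, against 2.77 FPKM in bulk cells, and Inpp5d, a gene mainly of leukocytes, at 0.279 FPKM in mammospheres and 1.63 FPKM in bulk cells. Akt1 was at 88.9 FPKM in mammospheres, against 92.3 FPKM in bulk cells, the PI3-kinase regulatory subunit gene Pik3r2 at 48.5 FPKM in mammospheres, against 41.0 FPKM in bulk cells, and the lipid phosphatase gene Inppl1 at 41.3 FPKM in mammospheres, against 44.5 FPKM in bulk cells. In the knockdown library Akt1 was at 196 FPKM, against 189 FPKM in the control library, and the median of 18 genes kept was 0.03. None of the 20 TSC and mTOR branch genes was counted in mammospheres (median -0.13), beside 17.3% lower and 3.54% higher over all rows kept. None was counted in the knockdown comparison either (median -0.07). There only 0.449% of all rows kept were lower and 0.299% higher, so a count of 0 was near that share. Eif4b, a translation factor downstream of mTOR, was at 132 FPKM in mammospheres, against 252 FPKM in bulk cells, and Eif4ebp1, the mTOR-controlled translation repressor, at 197 FPKM in mammospheres and 141 FPKM in bulk cells. Rps6, the ribosomal protein phosphorylated by S6 kinases, was at 409.7 FPKM in mammospheres, against 510.5 FPKM in bulk cells.

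Of 18 FOXO factors and genes known as FOXO targets, 7 of 15 kept were lower in mammospheres and 1 higher (median -0.89), beside 17.3% lower and 3.54% higher over all rows kept. Pdk4 and Tnfsf10 were kept only through bulk cells. Pdk4, a kinase that restrains pyruvate oxidation, was at 0.0571 FPKM in mammospheres, against 98.1 FPKM in bulk cells. Cited2 was at 21.8 FPKM in mammospheres, against 118 FPKM in bulk cells, and the stress gene Gadd45a at 21.9 FPKM in mammospheres and 73.2 FPKM in bulk cells. The repressor gene Bcl6 was at 4.33 FPKM in mammospheres, against 16.8 FPKM in bulk cells, and the ubiquitin ligase gene Fbxo32 at 1.13 FPKM in mammospheres, against 6.02 FPKM in bulk cells. Ccng2, a cyclin gene, was at 16.2 FPKM in mammospheres, against 35.0 FPKM in bulk cells, and the death ligand gene Tnfsf10 at 0.256 FPKM in mammospheres, against 1.67 FPKM in bulk cells. Txnip, which restrains glucose uptake, went the other way, at 77.8 FPKM in mammospheres, against 37.4 FPKM in bulk cells (log2 change 1.04, q = 0.00792 in the authors' deposited table). In the knockdown comparison the list median was -0.06 over 13 genes kept, with the catalase gene Cat at 66.3 FPKM in the knockdown library, against 53.7 FPKM in the control library.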

How the data were processed

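The reads had been handled with TopHat 1.4.0 and Cufflinks 1.3.0 after FastQC 0.10.0, then with Cuffdiff (listed as 0.0.7), on mm9, per the submitters' processing notes, which name no settings. The authors deposited 2 tables with FPKM per gene and the p-values and q-values of their own comparison; those are quoted as the authors'. The notes do not say how multi-mapping reads were shared out. From the FPKM, log2 changes were computed within each table with 1 FPKM added, over rows with status OK or NOTEST and 1 FPKM or more in either library; rows marked FAIL or HIDATA were left out. The members and gene lists were chosen with earlier results of these data known. Named pathway genes were those past 2-fold in either comparison and the 2 most abundant per list and table; the ligand genes, Pappa and Gapdh were added after their values were seen. One gene of the pathway lists is not reported here and was left out of their counts. The counting step was tested on simulated data. Alternatives were pseudocounts of 0.1 and 5, FPKM minimums of 0 and 5, fold limits of 1.5 and 4, centring, equal upper quartiles, tested rows only, summed rows and rows at 0 left out. Python 3.11.15, pandas 2.3.3 and numpy 2.4.6 were used.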

Additional observations from a re-analysis of the deposited data

How the results depend on the processing

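No paired analysis was possible because each group is 1 library. In the mammosphere comparison, the number of members counted as lower was 5, and became 3 (Igfbp7, Igfbp6 and Irs2) with 5 FPKM added, with a minimum of 5 FPKM, at a limit of 4-fold, with tested rows only, and with rows at 0 left out, an alternative chosen after seeing the data. These alternatives by their construction drop or shrink Igfbp3 and Igfbp5, which lie under 2 FPKM. One member, Insr, became higher (count of 1) at a limit of 1.5-fold, after centring and with equal upper quartiles. Pathway genes counted as higher were 1 with 5 FPKM added, 5 at 1.5-fold, 0 at 4-fold, 4 after centring, 5 with equal upper quartiles and 2 among tested rows only, against 3. Those counted as lower were 22 with 0.1 FPKM added, 10 with 5 FPKM added and 14 with a minimum of 5 FPKM, against 17. They were 31 at 1.5-fold, 8 at 4-fold, 12 after centring, 13 with equal upper quartiles and 11 among tested rows only. The pathway genes kept were 76 with a minimum of 5 FPKM and 42 among tested rows only, against 87. Of all 11603 rows kept, 756 were higher and 1451 lower after centring, and 820 and 1563 with equal upper quartiles. For the other pseudocounts, minimums and fold limits, and for tested rows only, no share over all rows is given in either comparison. In the knockdown comparison counts of 0 held except at 1.5-fold, where 2 members (Igfbp6 and Irs2) and 2 pathway genes were lower and 2 pathway genes higher. No member counted as lower could have changed sign under these alternatives. Pseudocounts, minimums and fold limits leave the sign as it is. Centring and equal upper quartiles moved the median row by only 0.238 and 0.280 in the mammosphere comparison. With no counts in the files, depth sets a limit for low rows that cannot be stated.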

Other observations

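The largest differences of the other pathway genes in the Cbx8 knockdown library were in 2 stress and nutrient genes, picked here after their values were seen. Txnip was at 37.8 FPKM in the knockdown library, against 68.5 FPKM in the control library (log2 change -0.84). Ddit4, an inhibitor of mTOR upstream of TSC, was at 81.1 FPKM in the knockdown library, against 144 FPKM in the control library (log2 change -0.82). Neither passed in the authors' deposited table, where q was 0.24 for Txnip and 0.39 for Ddit4. In mammospheres Ddit4 was at 100.3 FPKM, against 90.8 FPKM in bulk cells.

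Of the genes next to the members on the mm9 map, some had lower values in mammospheres and others did not. 2610024G14Rik, 397 bases from Igfbp7, was at 10.9 FPKM in mammospheres, against 15.3 FPKM in bulk cells (log2 change -0.45). Tns3, beside Igfbp3, was at 23.7 FPKM in mammospheres, against 34.6 FPKM in bulk cells (log2 change -0.52). Soat2 lies 1062 bases beyond Igfbp6 and was at 0.457 FPKM in mammospheres, against 0.295 FPKM in bulk cells, under the minimum of 1 FPKM. Spryd3 on the other side was at 12.8 FPKM in mammospheres, against 21.7 FPKM in bulk cells. Top2a, 17070 bases from Igfbp4, was at 103 FPKM in mammospheres, against 44.9 FPKM in bulk cells, but Igfbp4 itself was not counted as lower. Col4a1, the listed neighbour of Irs2 at 189992 bases, was at 39.4 FPKM in mammospheres, against 83.0 FPKM in bulk cells.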
